A study of Mus musculus with 25 samples.

Results

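The 10 genes described here encode transcription factors that set the fate of T cells and their exhaustion: Tcf7, Bach2, Id3, Tbx21, Id2, Prdm1, Tox, Eomes, Batf and Nr4a1. They were taken by symbol from a table of 55450 genes, and all 10 were among the 18031 genes that passed the filter on low counts. Each was followed over 4 groups of tumours, as its own level and as a ratio to Cd3e, which encodes a signalling chain of the T cell receptor complex. The samples were 25 tumours of the mouse melanoma line B2905, also called M4, grown in C57BL/6 mice and measured by bulk RNA sequencing. The control group held 5 tumours from mice given the isotype antibody IgG2b. The other 20 came from an arm of 30 mice given anti-CTLA-4, which blocks a brake on T cell activation. Both antibodies were dosed at 10 mg/kg, 2 times a week for 2 weeks, once tumours averaged 75 mm3. The anti-CTLA-4 tumours were sorted by outcome in the 10 to 11 days after the last dose into 6 non-responders that kept growing, 6 stable tumours and 8 responders that shrank. The outcome groups were therefore not assigned at random, and all groups carried tumours of 1 implanted line. The sources used here give neither the age of the mice nor the day of harvest. The titles give each tumour an id of its own, and p-values measure the spread between these tumours.

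TCF1, the product of Tcf7, keeps T cells in a naive, memory or progenitor state, and BACH2 and ID3 act on the same side by holding back effector programmes. T-bet (Tbx21), ID2 and BLIMP-1 (Prdm1) drive effector differentiation, and ID2 and ID3 work by binding E proteins and keeping them off E-box DNA sites. TOX is the factor that installs and maintains the exhausted state under lasting antigen, and EOMES, a relative of T-bet, is high in memory cells and in exhausted cells. BATF, an AP-1 family factor, and NR4A1, an immediate early nuclear receptor, are switched on by signalling through the T cell receptor. Several of these genes are also used outside T cells: Tbx21 and Eomes in NK cells, Id2 in macrophages and dendritic cells, Prdm1 in plasma cells and keratinocytes, Bach2 in B cells, and Id3 and Nr4a1 in many stromal and tumour cells.

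Total counts ran from 8.76 to 34.3 M per tumour, with means of 25.5 ± 6.22 M in controls, 20.2 ± 4.97 M in non-responders, 18.5 ± 3.04 M in stable tumours and 14.9 ± 4.74 M in responders (SD, n = 5, 6, 6 and 8). Counts of protein-coding genes made up 82.9% to 89.2% of every library outside the responders. Among responders that share was 87.0% in responder 5 and 23.8% to 74.4% in the other 7. The sample descriptions open with numbers that run group by group, and what these numbers stand for is not stated. The 7 melanocyte markers summed to 10500 to 17110 CPM (counts per M counts of the TMM-scaled library) in controls and to 723 to 13870 CPM in non-responders. They summed to 228 to 504 CPM in stable tumours and 303 to 722 CPM in responders. The 15 T cell markers summed to 33.3 to 87.9 CPM in controls, 85.0 to 404 CPM in non-responders, 344 to 475 CPM in stable tumours and 256 to 510 CPM in responders. In such whole-tumour samples fewer cells of a type and less RNA per cell cannot be told apart.

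The sequences before a RefSeq start are shown for 3 of these genes. Tbx21 and Prdm1 were chosen as the effector genes that were higher in responders than in non-responders. Bach2 was chosen as one of 2 genes of the opposite side, with Tcf7, that were higher in responders than in controls. The sequences are the 250 bases before the RefSeq start on GRCm38.p6, given 5′ to 3′ on the gene's strand. The Tbx21 window lies just before the annotated gene. Those of Prdm1 and Bach2 lie inside the annotated genes (chr10:44437177-44528501 and chr4:32238804-32586108), before internal starts. Capitals mark E-boxes (CANNTG, the site class that ID2 and ID3 keep E proteins from) in Tbx21, at chr11:97115332-97115581 on the minus strand, and in Prdm1, at chr10:44458749-44458998 on the minus strand. In Bach2, at chr4:32417185-32417434 on the plus strand, they mark a TCF/LEF core (CTTTGA, lying here on the opposite strand), the kind of site that TCF1 binds.
Tbx21: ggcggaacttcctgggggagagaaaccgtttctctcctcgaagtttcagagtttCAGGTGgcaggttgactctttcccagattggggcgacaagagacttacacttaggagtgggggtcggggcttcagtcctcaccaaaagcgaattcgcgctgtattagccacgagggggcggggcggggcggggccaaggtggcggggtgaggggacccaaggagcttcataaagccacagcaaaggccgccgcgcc
Prdm1: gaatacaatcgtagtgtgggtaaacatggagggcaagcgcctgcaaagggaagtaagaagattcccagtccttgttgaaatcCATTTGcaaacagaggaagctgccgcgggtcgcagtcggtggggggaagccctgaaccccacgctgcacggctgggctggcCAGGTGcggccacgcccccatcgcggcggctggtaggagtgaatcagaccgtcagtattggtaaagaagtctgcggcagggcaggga
Bach2: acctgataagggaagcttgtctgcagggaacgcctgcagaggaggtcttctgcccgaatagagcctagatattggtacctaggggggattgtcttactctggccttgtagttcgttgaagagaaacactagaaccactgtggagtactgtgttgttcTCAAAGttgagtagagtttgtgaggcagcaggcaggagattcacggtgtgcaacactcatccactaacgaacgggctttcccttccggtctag
Tbx21 held 1 E-box, at -196 from the start, and Prdm1 held 2, at -168 and -87. Both strands were searched for 6 motifs in the 9 members with a RefSeq window, and Tox has no entry. E-boxes were found in 5 of the 9 and in 66.2% of 32851 windows of the same length. The AP-1 site TGANTCA, bound by BATF with JUN partners, lay in Prdm1 alone at -48 and in 6.75% of all windows. The TCF/LEF core at -93 of Bach2 was likewise the single match among the members, against 13.8% of all windows. The NFAT core GGAAA was found in 4 members and 55.6% of windows, the NR4A half-site AGGTCA in Tcf7 and 14% of windows, and the T-box core TCACAC in none of the 9 and 12.3% of windows. Such matches describe letters only.

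On the authors' RPKM scale, which divides by gene length, Id2, Nr4a1 and Id3 stood highest and Eomes lowest in every group. Id2 had 13.1 ± 3.29 RPKM in the 5 controls, against 29.2 ± 15.0 for the 6 non-responders, 53.2 ± 4.46 for the 6 stable tumours and 36.9 ± 14.1 for the 8 responders (mean ± SD). Nr4a1 was at 23.0 ± 4.37, 22.6 ± 5.74, 22.0 ± 7.25 and 26.3 ± 4.18 RPKM in the same order. Eomes had 0.128 ± 0.0813 RPKM in controls and 0.659 ± 0.143 RPKM in stable tumours, and Tox had 0.298 ± 0.121 and 0.846 ± 0.329 RPKM. Tox and Eomes rested on few counts, 7 to 131 and 2 to 91 per tumour. Cd3e ran from 0.698 ± 0.357 RPKM in controls to 9.19 ± 2.52 RPKM in responders.

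Against controls, 8 of the 10 genes rose in responders, 8 in stable tumours and 6 in non-responders, and none fell (edgeR quasi-likelihood test, Benjamini-Hochberg adjusted over 18031 genes, called under 0.05). Genes called higher made up 36.1%, 22.2% and 10.6% of all genes tested in these 3 comparisons, and genes called lower 28.9%, 19.6% and 3.29%. The members' median log2 fold change was 1.53, 1.67 and 1.01, beside 0.16, 0.03 and 0.04 over all genes. The 2 genes called against controls in no group were Id3 and Nr4a1. These 3 comparisons share the 5 controls. Between outcome groups, 3 members rose and 1 fell in responders against non-responders, where 25.2% of all genes were called higher and 23.8% lower. Stable tumours had 2 members higher than non-responders and none lower, where the shares of all genes were 7.08% and 7.86%. No member was called between responders and stable tumours, where 20.5% of all genes were called higher and 17.8% lower. In that comparison 1 member, Id2, had an unadjusted p under 0.05 by edgeR, and DESeq2 called 1.

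**Figure D1:**
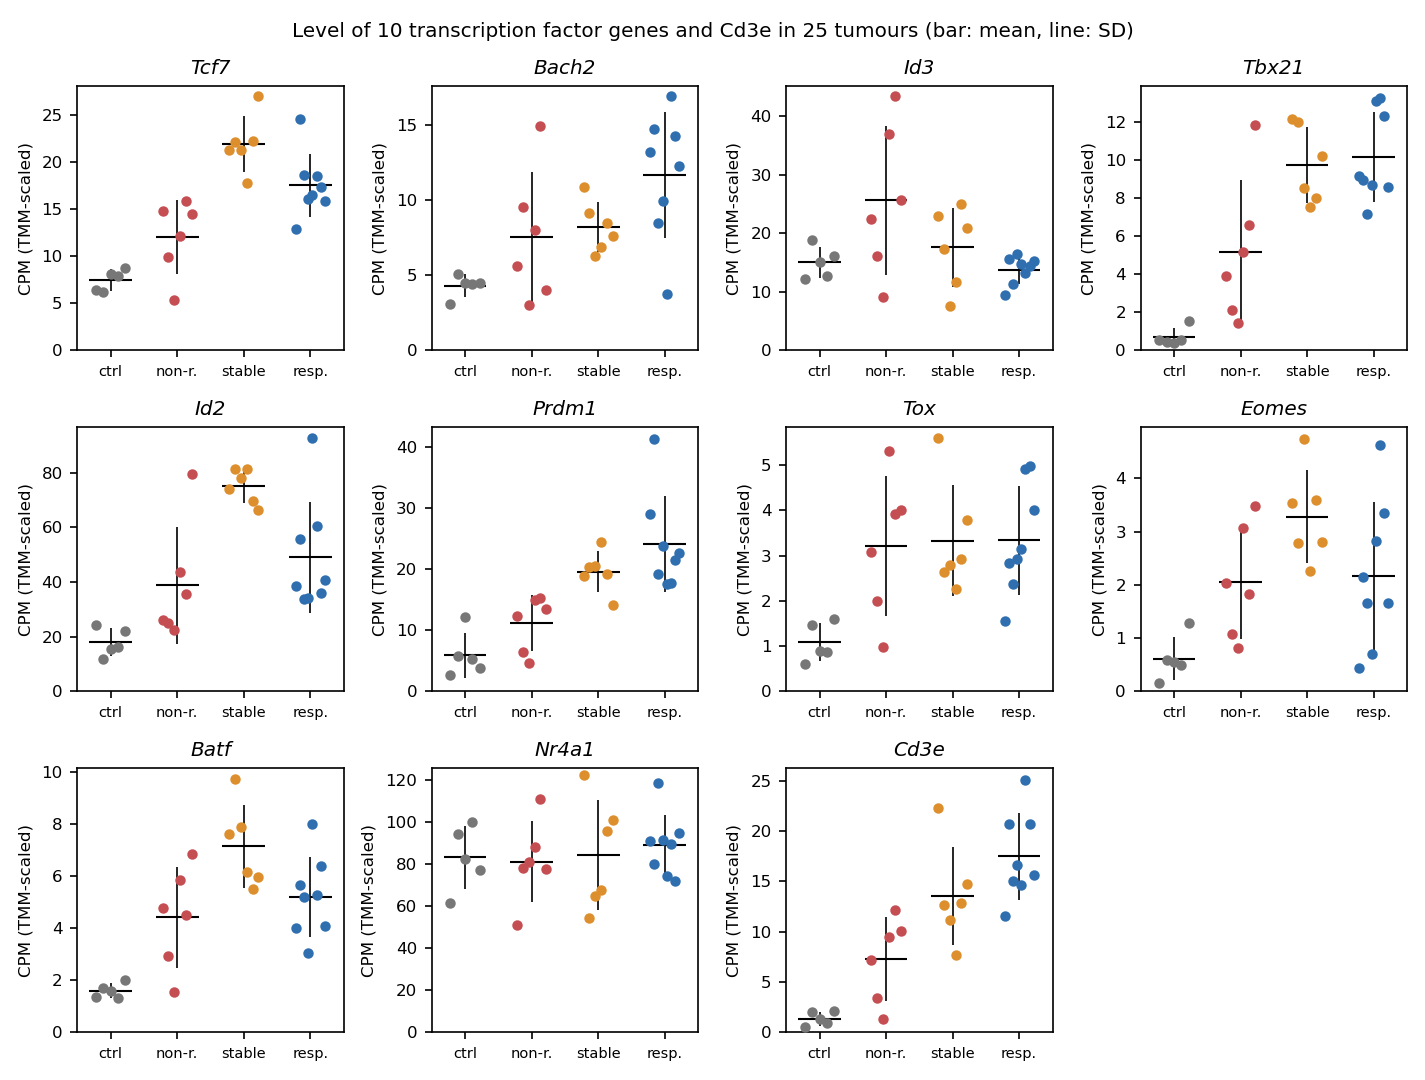
Level of each gene and of Cd3e in TMM-scaled CPM (y axis) by group (x axis: ctrl, IgG2b control; non-r., non-responder; resp., responder), with 1 point per tumour, a bar at the mean and a line of 1 SD. Tbx21 lies at 0.391 to 1.55 CPM in controls and at 7.14 CPM or more in responders and stable tumours, while Nr4a1 spans much the same range in all 4 groups.

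Tcf7 (ENSMUSG00000000782.15, chr11:52252371-52283014, minus strand, GRCm38) was the member whose rise over non-responders was called in both responders and stable tumours. The 5 controls had 6.40, 6.15, 8.14, 7.86 and 8.80 CPM. Non-responders ran from 5.37 CPM through a median of 13.3 to 15.9, stable tumours from 17.8 through 21.7 to 27.0, and responders from 12.9 through 16.9 to 24.6. Every non-responder was exceeded by all 6 stable tumours and 7 of 8 responders, and every control by all of these. The log2 fold change was 0.54 (SE 0.178, adjusted p = 0.0154) for responders and 0.86 (SE 0.188, adjusted p = 0.00528) for stable tumours against non-responders. Against controls it was 1.24 in responders (adjusted p = 1.01e-05), 1.56 in stable tumours (adjusted p = 2.76e-06) and 0.69 in non-responders (SE 0.200, adjusted p = 0.0211). The call for non-responders against controls was lost without control 1 (adjusted p = 0.0675), control 2 (0.0575), non-responder 5 (0.0641) or non-responder 6 (0.0516), with no low-count filter (0.0648) and in a fit of only those groups (0.1).

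Bach2 (ENSMUSG00000040270.16, chr4:32238804-32586108, plus strand) rose against controls in responders (log2 fold change 1.43, SE 0.331, adjusted p = 0.000637) and in stable tumours (0.93, SE 0.339, adjusted p = 0.0304). Controls had 3.10, 5.09, 4.50, 4.41 and 4.50 CPM. The medians were 6.80 CPM in non-responders (range 3.01 to 14.9), 8.04 in stable tumours (6.30 to 10.9) and 12.7 in responders (3.73 to 16.9). All 6 stable tumours and 7 of 8 responders stood above every control. The low one, at 3.73 CPM, was responder 5, the library with the usual protein-coding share; the other 7 had 8.48 CPM or more. With responder 5 as the sole responder the log2 fold change against controls was -0.25. Over all 8 responders, the log2 fold change against non-responders was 0.63 (SE 0.301, adjusted p = 0.0841), and 0.77 (adjusted p = 0.0182) without responder 5 or 0.95 (adjusted p = 0.0102) without non-responder 5. The call in stable tumours was lost without control 1 (adjusted p = 0.0807), control 4 (0.0534), stable 1 (0.0653) or stable 2 (0.0509), with no low-count filter (log2 0.78, adjusted p = 0.0725) and on log2(RPKM + 1) (0.35, adjusted p = 0.174). The 8 B cell markers, a cell type that uses Bach2, summed to 1.36 to 3.88 CPM in the controls and 3.05 to 15.4 in non-responders, 7.92 to 15.9 in stable tumours and 1.34 to 35.9 in responders, and their part in the result was not tested. The antisense gene Bach2os overlaps Bach2 exons, and whether the counting used strand is not given in the sources used here.

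Id3 (ENSMUSG00000007872.3, chr4:136143497-136145755, plus strand) was the member that fell in responders against non-responders. Controls had 12.2, 18.8, 15.1, 12.7 and 16.1 CPM. Non-responders ran from 9.07 CPM through a median of 24.1 to 43.3, stable tumours from 7.64 through 19.1 to 25.0, and responders from 9.37 through 14.5 to 16.5. The non-responders were the most spread, and the responders lay within the span of the controls and below it. The log2 fold change of responders against non-responders was -0.89 (SE 0.267, adjusted p = 0.00895), and it was -0.84 (adjusted p = 0.123) when the model held each library's protein-coding share and -0.68 (adjusted p = 0.0676) on log2(RPKM + 1). For stable tumours against non-responders it was -0.55 (SE 0.286, adjusted p = 0.207). Against controls, the values were -0.12 in responders, 0.23 in stable tumours and 0.77 (SE 0.302, adjusted p = 0.0905) in non-responders, and the last was 0.95 (adjusted p = 0.0123) without non-responder 3. Markers of 2 other cell types also fell in responders against non-responders. All 7 endothelial and all 7 melanocyte markers were called lower, with median log2 fold changes of -1.33 and -4.26. In non-responders 1 to 6, in order, Id3 was at 22.5, 16.2, 9.07, 36.9, 43.3 and 25.7 CPM. Their melanocyte sums were 3521, 6983, 13870, 1230, 904 and 723 CPM. Their endothelial sums were 214, 169, 182, 333, 263 and 170 CPM. The endothelial markers summed to 169 to 333 CPM in non-responders and 54.2 to 139 CPM in responders. The part of both cell types in the fall of Id3 was not tested.

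Tbx21 (ENSMUSG00000001444.2, chr11:97098071-97115331, minus strand) had the largest fold change of the 10 members against controls in each outcome group. Controls had 0.533, 0.442, 0.391, 0.521 and 1.55 CPM, resting on 10 to 30 counts per tumour. The medians were 4.54 CPM in non-responders (range 1.42 to 11.8), 9.37 in stable tumours (7.53 to 12.1) and 9.04 in responders (7.14 to 13.2). All responders and all stable tumours lay above every control, and 5 of 6 non-responders did. Tbx21 was 15.0-fold higher in responders (log2 3.90, SE 0.446, adjusted p = 2.70e-07), 14.4-fold higher in stable tumours (log2 3.84, SE 0.453, adjusted p = 1.05e-06) and 7.65-fold higher in non-responders (log2 2.94, SE 0.438, adjusted p = 0.000436). Against non-responders the log2 fold change was 0.97 (SE 0.352, adjusted p = 0.0267) in responders and 0.91 (SE 0.369, adjusted p = 0.0989) in stable tumours. The call in responders was lost when the model held the protein-coding share (log2 1.03, adjusted p = 0.119) and without non-responder 1 (0.90, adjusted p = 0.0538), non-responder 2 (0.81, adjusted p = 0.0654) or non-responder 3 (0.77, adjusted p = 0.0613). Non-responder 6, at 11.8 CPM, overlapped the responders, and without it the value in stable tumours was 1.34 (adjusted p = 0.00688). The 7 NK cell markers, of a cell type that uses Tbx21, summed to 2.70 to 8.33 CPM in the controls and 6.45 to 70.8 in non-responders, 37.9 to 66.9 in stable tumours and 26.8 to 64.7 in responders, and their part in the result was not tested.

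Id2 (ENSMUSG00000020644.9, chr12:25093799-25097140, minus strand) was highest in stable tumours, where it rose over non-responders. Controls had 24.1, 12.0, 15.7, 16.4 and 22.3 CPM. Stable tumours ran from 66.4 CPM through a median of 76.0 to 81.6, non-responders from 22.6 through 31.0 to 79.4, and responders from 33.8 through 39.8 to 92.7. The top value of the non-responders was non-responder 6 and that of the responders responder 5. The other 7 responders lay below every stable tumour. The log2 fold change of stable tumours against non-responders was 0.95 (SE 0.277, adjusted p = 0.0237), and its call did not survive leaving out non-responder 1 (adjusted p = 0.057), non-responder 2 (0.0655) or non-responder 3 (0.0653). Responders minus stable tumours gave -0.61 (SE 0.256, adjusted p = 0.0607), which was -0.81 (adjusted p = 0.00708) without responder 5 and -0.60 (adjusted p = 0.0497) by DESeq2. Responders minus non-responders gave 0.34 (SE 0.259, adjusted p = 0.278), and 0.68 (adjusted p = 0.0188) without non-responder 6. Against controls Id2 rose by 1.44 in responders, 2.05 in stable tumours and 1.10 in non-responders (adjusted p = 0.000147, 1.10e-05 and 0.0138), and the last call was lost without non-responder 6 (log2 0.76, adjusted p = 0.0534) and in a fit of only those groups (1.07, adjusted p = 0.0632). The 9 macrophage markers summed to 619 to 1045 CPM in the controls and 818 to 2513 in non-responders, 2246 to 3523 in stable tumours and 1041 to 3106 in responders. The 8 dendritic cell markers summed to 23.5 to 64.4, 48 to 339, 252 to 388 and 160 to 379 CPM in the same order. The part of both cell types in the Id2 values was not tested.

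Prdm1 (ENSMUSG00000038151.13, chr10:44437177-44528501, minus strand) was higher in each responder than in any non-responder. In that comparison 25.2% of all genes were called higher, and how many separated the groups in this way was not counted. Controls had 2.70, 5.71, 12.2, 5.34 and 3.78 CPM. Non-responders ran from 4.60 CPM through a median of 12.9 to 15.3, stable tumours from 14.2 through 19.7 to 24.5, and responders from 17.6 through 22.0 to 41.3. All 8 responders and 5 of 6 stable tumours lay above every non-responder. The log2 fold change was 1.11 (SE 0.295, adjusted p = 0.00434) for responders against non-responders, and 0.89 (adjusted p = 0.107) when the model held the protein-coding share. For stable tumours against non-responders it was 0.81 (SE 0.308, adjusted p = 0.0773). Prdm1 rose against controls by 2.02 in responders (adjusted p = 1.60e-05) and 1.72 in stable tumours (adjusted p = 0.000215). In non-responders the value was 0.91 (SE 0.329, adjusted p = 0.066), and 1.34 (adjusted p = 0.00702) without control 3. The 5 plasma cell markers summed to 1.40 to 7.51 CPM in the controls and 11.3 to 27.6 in non-responders, 25.1 to 204 in stable tumours and 4.24 to 86.0 in responders. The 6 keratinocyte markers summed to 11.8 to 1019, 10.4 to 447, 16.6 to 378 and 2.97 to 1835 CPM. The part of these cells in the Prdm1 values was not tested.

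Tox (ENSMUSG00000041272.11, chr4:6686353-6991557, minus strand) rose over controls in every outcome group, and no difference between outcome groups passed the test. Controls had 0.600, 1.47, 0.900, 0.877 and 1.60 CPM. The medians were 3.50 CPM in non-responders (range 0.988 to 5.30), 2.85 in stable tumours (2.26 to 5.59) and 3.04 in responders (1.56 to 4.97). All 6 stable tumours, 7 of 8 responders and 5 of 6 non-responders lay above every control, and the 3 outcome groups overlapped. The log2 fold changes against controls were 1.63 (SE 0.363, adjusted p = 0.00046) in responders, 1.61 (SE 0.376, adjusted p = 0.00122) in stable tumours and 1.56 (SE 0.375, adjusted p = 0.00646) in non-responders. Between outcome groups they were 0.06 (SE 0.321, adjusted p = 0.880) for responders minus non-responders, 0.05 (SE 0.341, adjusted p = 0.944) for stable tumours minus non-responders and 0.02 (SE 0.321, adjusted p = 0.976) for responders minus stable tumours. The opposite-strand gene Gm11802 overlaps Tox exons.

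Eomes (ENSMUSG00000032446.14, chr9:118478212-118486132, plus strand) likewise rose against controls in all 3 outcome groups. Controls had 0.167, 0.590, 0.548, 0.493 and 1.29 CPM. Stable tumours ran from 2.26 CPM through a median of 3.17 to 4.74, non-responders from 0.816 through 1.93 to 3.48, and responders from 0.446 through 1.91 to 4.63. Each of the 6 stable tumours exceeded every control, as did 6 of 8 responders and 4 of 6 non-responders. The 2 low responders, responder 1 and responder 4, rest on 2 and 5 counts, and the controls on 5 to 25. The log2 fold change against controls was 2.42 (SE 0.509, adjusted p = 0.000457) in stable tumours, 1.85 (SE 0.485, adjusted p = 0.00193) in responders and 1.75 (SE 0.499, adjusted p = 0.0204) in non-responders. The call in non-responders was lost without control 1 (adjusted p = 0.065), control 4 (0.0609), non-responder 4 (0.0534) or non-responder 6 (0.0549), in a fit of only those groups (0.0555) and on log2(RPKM + 1) (0.094). Between outcome groups the values were 0.11 (SE 0.422) for responders minus non-responders, 0.68 (SE 0.447) for stable tumours minus non-responders and -0.57 (SE 0.417) for responders minus stable tumours, with adjusted p of 0.845, 0.330 and 0.285. The NK cell marker sums given with Tbx21 bear on Eomes too, and their part was not tested. Gm33460 overlaps Eomes exons on the other strand.

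Batf (ENSMUSG00000034266.6, chr12:85686669-85709087, plus strand) rose against controls in each outcome group. Controls had 1.37, 1.70, 1.60, 1.32 and 2.02 CPM. Stable tumours had a median of 6.91 CPM (range 5.51 to 9.75), responders 5.25 (3.07 to 8.00) and non-responders 4.66 (1.55 to 6.88). All stable tumours and responders and 5 of 6 non-responders exceeded every control. The log2 fold changes were 2.16 (SE 0.300, adjusted p = 4.88e-06) in stable tumours, 1.72 (SE 0.285, adjusted p = 1.98e-05) in responders and 1.47 (SE 0.293, adjusted p = 0.00159) in non-responders. Stable tumours minus non-responders gave 0.69 (SE 0.268, adjusted p = 0.0829), and 0.87 (adjusted p = 0.0251) without non-responder 6. Responders minus non-responders gave 0.25 (SE 0.253, adjusted p = 0.425), and responders minus stable tumours -0.45 (SE 0.250, adjusted p = 0.157).

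Nr4a1 (ENSMUSG00000023034.7, chr15:101254269-101274795, plus strand) was called in no comparison of levels. Controls had 61.6, 94.4, 82.4, 100.1 and 77.5 CPM. The medians were 79.6 CPM in non-responders (range 51.3 to 111), 81.8 in stable tumours (54.4 to 122) and 90.3 in responders (71.8 to 119). The 6 log2 fold changes lay between -0.04 (non-responders minus controls, SE 0.193) and 0.13 (responders minus non-responders, SE 0.173). Its relatives Nr4a2 and Nr4a3 were not called in any comparison either. The 10 immediate early genes, which respond to signals in many cell types, summed to 238 to 401 CPM in the controls and 230 to 362 in non-responders, 322 to 459 in stable tumours and 244 to 448 in responders, and their part in the Nr4a1 level was not tested.

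**Figure D2:**
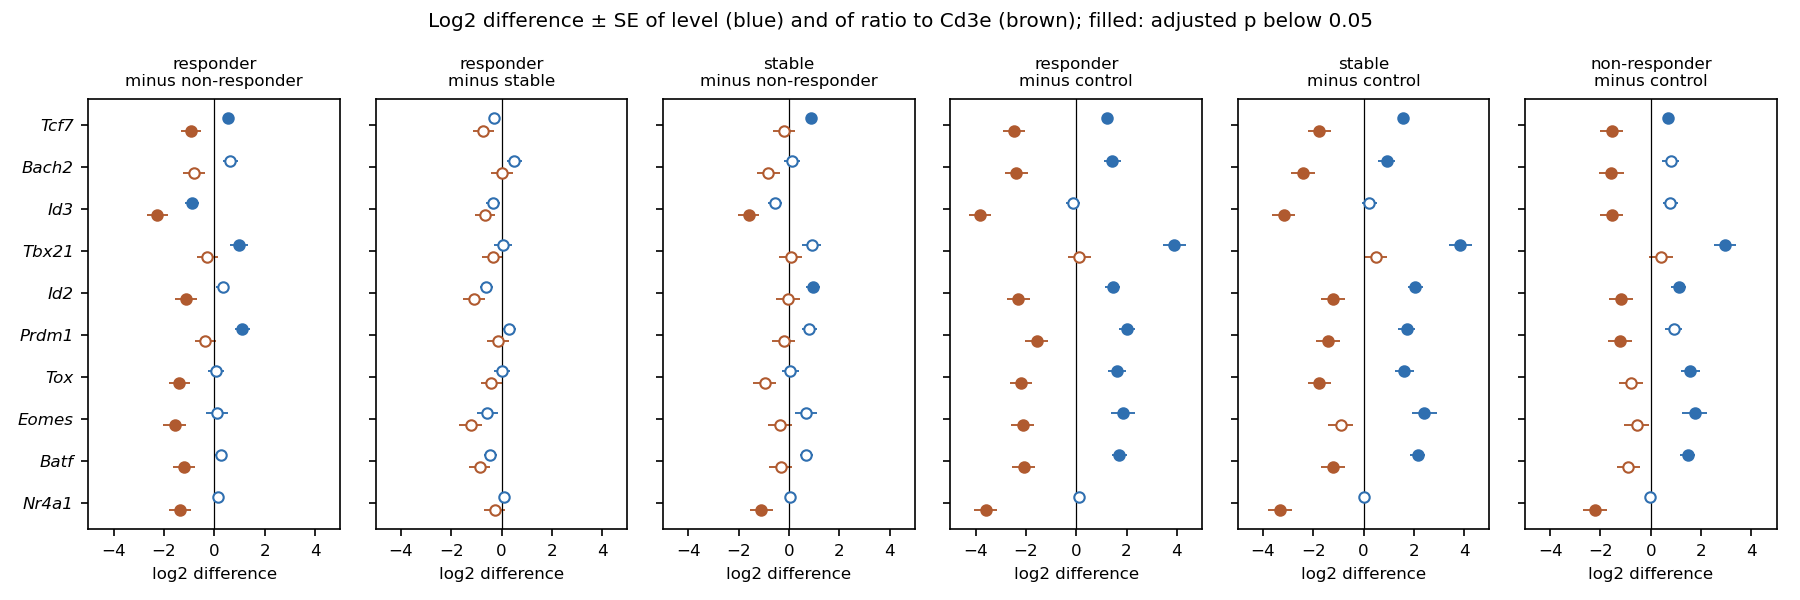
Log2 difference between groups (x axis) of each gene (y axis) for the 6 comparisons, as level (blue) and as ratio to Cd3e (brown), with a line of 1 SE and filled points where the adjusted p is below 0.05. Against controls most levels lie right of 0 and most ratios left of it, and Tbx21 is the gene whose ratio is nearest to or above 0 in all 3.

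The ratio to Cd3e asks how each gene compares with a T cell transcript in the same tumour. Cd3e itself was 12.9-fold higher than in controls in responders, 9.97-fold in stable tumours and 5.37-fold in non-responders (adjusted p = 4.67e-07, 3.54e-06 and 0.000734 by edgeR). Controls had 0.5, 1.99, 1.33, 0.904 and 2.12 CPM of Cd3e, from 15 to 54 counts. The medians were 8.34 CPM in non-responders (range 1.33 to 12.1), 12.8 in stable tumours (7.66 to 22.3) and 16.2 in responders (11.6 to 25.0). Cd3e rose in responders against non-responders (log2 fold change 1.27, SE 0.361, adjusted p = 0.0067). The 3 other genes of the CD3 complex did not pass the test there: Cd3d had 0.51 (adjusted p = 0.362), Cd3g 0.28 (adjusted p = 0.570) and Cd247 0.41 (adjusted p = 0.284). For responders minus stable tumours, Cd3e had 0.37 and Cd3d, Cd3g and Cd247 had -0.51, -0.54 and -0.54, none of them called. The opposite-strand gene Gm48719 overlaps Cd3e exons, and its part in the ratios was not tested.

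Against non-responders, 7 of the 10 genes fell in responders relative to Cd3e and none rose (limma on the log2 ratio, adjusted over 18030 genes). The same was true of most genes: 71.7% of all genes were called lower and 0.3% higher, and the median log2 difference was -1.17 for the members and -1.49 over all genes. The 7 were Id3 (-2.26, SE 0.406, adjusted p = 9.23e-06), Eomes (-1.57, SE 0.449, adjusted p = 0.00172), Tox (-1.38, SE 0.413, adjusted p = 0.0026), Nr4a1 (-1.37, SE 0.431, adjusted p = 0.00388), Batf (-1.20, SE 0.420, adjusted p = 0.009), Id2 (-1.13, SE 0.436, adjusted p = 0.0176) and Tcf7 (-0.93, SE 0.412, adjusted p = 0.0379). Bach2 had -0.82 (adjusted p = 0.0810), Prdm1 -0.35 (adjusted p = 0.461) and Tbx21 -0.28 (adjusted p = 0.551). With the mean of the 4 CD3 genes as the denominator, 1 of the 7 was called, Id3 at -1.58 (SE 0.371, adjusted p = 0.00197), while 36.7% of all genes were called lower and the median over all genes was -0.81. Tox then had -0.70 (adjusted p = 0.147) and Eomes -0.89 (adjusted p = 0.0861). The call of Tcf7 was lost on leaving out non-responder 1, 2 or 3 or responder 4, 6, 7 or 8, with adjusted p between 0.0506 and 0.0912, and with Cd2 as the denominator, no low-count filter, only those groups, the protein-coding share in the model or log2(RPKM + 1), with adjusted p between 0.0524 and 0.305. With Cd2, Id2 (-0.63, adjusted p = 0.120), Batf (-0.70, adjusted p = 0.0865) and Nr4a1 (-0.87, adjusted p = 0.0641) were also not called. With the protein-coding share in the model, Eomes (-0.74, adjusted p = 0.226), Id2 (-0.89, adjusted p = 0.150) and Batf (-1.01, adjusted p = 0.0932) were not called. Bach2 was called with that share in the model (-1.31, adjusted p = 0.0343), on log2(RPKM + 1) (-0.77, adjusted p = 0.0125), with a Cd3e offset (-1.02, adjusted p = 0.033) and without non-responder 6 (-1.11, adjusted p = 0.019). On log2(RPKM + 1) the added 1 damps changes of Bach2 more than those of Cd3e. Bach2 had 0.951 RPKM in non-responders and 1.63 in responders, and Cd3e 3.87 and 9.19.

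The Tox and Id3 ratios of non-responders did not overlap those of the other 2 outcome groups. How many of all genes separated in this way per Cd3e was not counted. In controls the CPM ratio had a median of 0.756 (range 0.677 to 1.2), in non-responders 0.493 (0.323 to 0.742), in stable tumours 0.251 (0.208 to 0.296) and in responders 0.186 (0.135 to 0.256). Every stable tumour and every responder lay below every non-responder, and the stable and responder groups overlapped. For stable tumours minus non-responders the log2 difference of Tox was -0.97 (SE 0.442, adjusted p = 0.0567). The median over all genes was -1.13, and 51.4% of them were called lower. With the mean of 4 CD3 genes Tox passed the test (-1.08, adjusted p = 0.0244), beside a median of -1.245 over all genes. On log2(RPKM + 1) it had -0.90 (adjusted p = 0.0132), a scale on which the added 1 damps changes of Tox more than those of Cd3e. Tox had 0.970 RPKM in non-responders and 0.846 in stable tumours, and Cd3e 3.87 and 7.04. Tox also passed with Cd2 (-1.24, adjusted p = 0.00681), a Cd3e offset (-1.01, adjusted p = 0.0428) or a prior count of 5 (-0.95, adjusted p = 0.048). The same held without control 1, non-responder 5, non-responder 6 or stable 4. For responders minus stable tumours the Tox difference per Cd3e was -0.42 (adjusted p = 0.535). For Id3 per Cd3e the medians were 11.4 in controls (7.61 to 24.4), 3.74 among non-responders (range 2.55 to 6.81), 1.39 in stable tumours (0.685 to 1.94) and 0.781 in responders (0.525 to 1.00). The stable and responder ratios of Id3 again lay below every non-responder. For responders minus stable tumours the median difference over all genes was -0.43 per Cd3e, and Id3 had -0.66 (adjusted p = 0.308). With the mean of 4 CD3 genes as the denominator the sign turned, to 0.38 for Tox and 0.14 for Id3, beside 0.37 over all genes, and neither was called.

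Stable tumours had 2 members lower than non-responders relative to Cd3e, Id3 (-1.60, SE 0.434, adjusted p = 0.00695) and Nr4a1 (-1.09, SE 0.460, adjusted p = 0.0434), where 51.4% of all genes were called lower and 0.266% higher. The Nr4a1 call was lost without non-responder 2 or 3 or stable 1, 2, 3, 5 or 6, and in a fit of only those groups, and it was -0.68 (adjusted p = 0.174) without non-responder 3, the tumour with 31 Cd3e counts. No member was called between responders and stable tumours, where 0.56% of all genes were called higher and 0.926% lower. By limma 3 members had an unadjusted p under 0.05 there: Eomes (-1.22, SE 0.449), Id2 (-1.10, SE 0.436) and Batf, with adjusted p of 0.116, 0.139 and 0.202. The Eomes ratio was called without non-responder 3 (adjusted p = 0.0395) or responder 5 (0.0485), and that of Id2 without non-responder 3 (0.0365).

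Relative to Cd3e, 9 members were lower than in controls in responders, 8 in stable tumours and 6 in non-responders, where 95.6%, 93.9% and 90.6% of all genes were called lower and 0.122%, 0.194% and 0.0388% higher. The member medians were -2.24, -1.59 and -1.20, beside -3.60, -3.28 and -2.15 over all genes. Tbx21 was the member called in none of the 3. Its log2 difference from controls was 0.13 (SE 0.440, adjusted p = 0.775) in responders, 0.48 (SE 0.467, adjusted p = 0.316) in stable tumours and 0.41 (SE 0.467, adjusted p = 0.391) in non-responders. The 5 control ratios of Tbx21 to Cd3e ranged from 0.222 to 1.07, those of non-responders from 0.539 to 1.17, of stable tumours from 0.545 to 0.983 and of responders from 0.433 to 0.893. The 4 groups overlapped throughout. On the log2(RPKM + 1) scale the difference in responders was -0.71 (adjusted p = 0.0262). There the added 1 exceeds the control means of 0.197 RPKM for Tbx21 and 0.698 for Cd3e, so that value is not the log2 of a plain ratio. The CPM ratio itself averaged 0.578 in controls and 0.597 in responders.

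**Figure D3:**
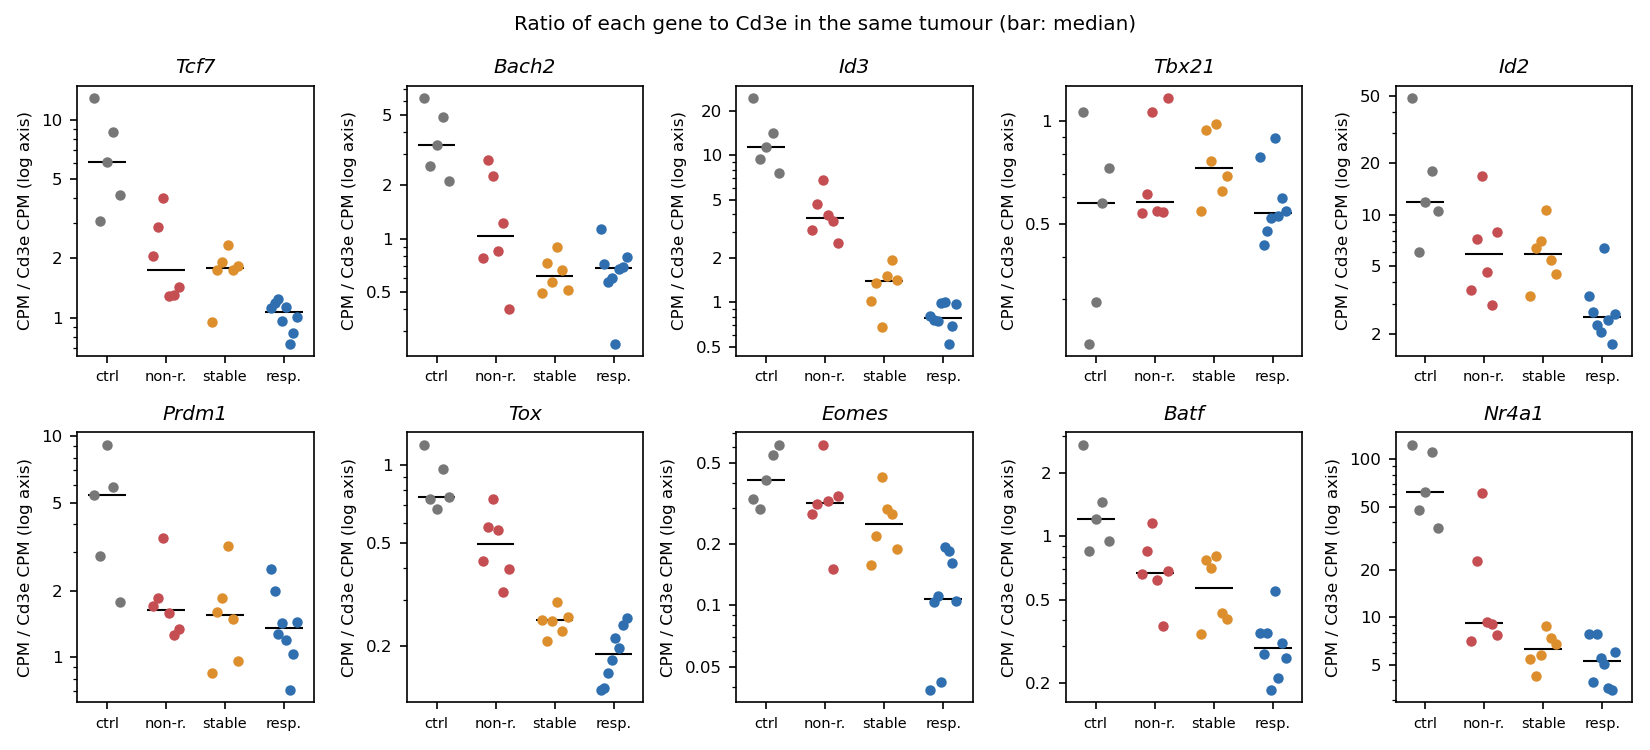
CPM of each gene divided by that of Cd3e in the same tumour (log y axis) by group (x axis, named as in the plot of levels), with 1 point per tumour and a bar at the median. Tox and Id3 lie lower in each stable and responder tumour than in any non-responder, whereas the 4 groups of Tbx21 overlap. Against non-responders, 71.7% of all genes were called lower per Cd3e in responders and 51.4% in stable tumours. How many of all genes separated without overlap was not counted.

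Pairs of members with opposed or related roles were compared within each tumour, as CPM ratios that describe tumours and not levels per length. The pairs were chosen after the values were seen and were not tested. Id2 per Id3, the effector against the memory member of one family, averaged 1.26 ± 0.492 in controls and 1.72 ± 0.884 in non-responders, and 5.19 ± 2.91 in stable tumours and 3.61 ± 1.38 in responders (SD, n = 5, 6, 6 and 8). The stable range of 2.79 to 10.2 and the responder range of 2.07 to 6.31 both overlapped the top of the non-responders, whose range was 0.825 to 3.09. Tbx21 per Eomes averaged 1.38 ± 1.04, 2.38 ± 0.870, 3.13 ± 0.937 and 7.21 ± 6.14 in the same order. The 2 responders with the fewest Eomes counts set the top of that range, up to 20.5, and the responder median was 4.46. Prdm1 per Bach2 averaged 1.35 ± 0.774, 1.77 ± 0.941, 2.48 ± 0.754 and 2.35 ± 1.10, and Tcf7 per Tox 7.67 ± 2.72, 4.20 ± 1.14, 7.07 ± 1.66 and 5.85 ± 2.13.

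**Figure D4:**
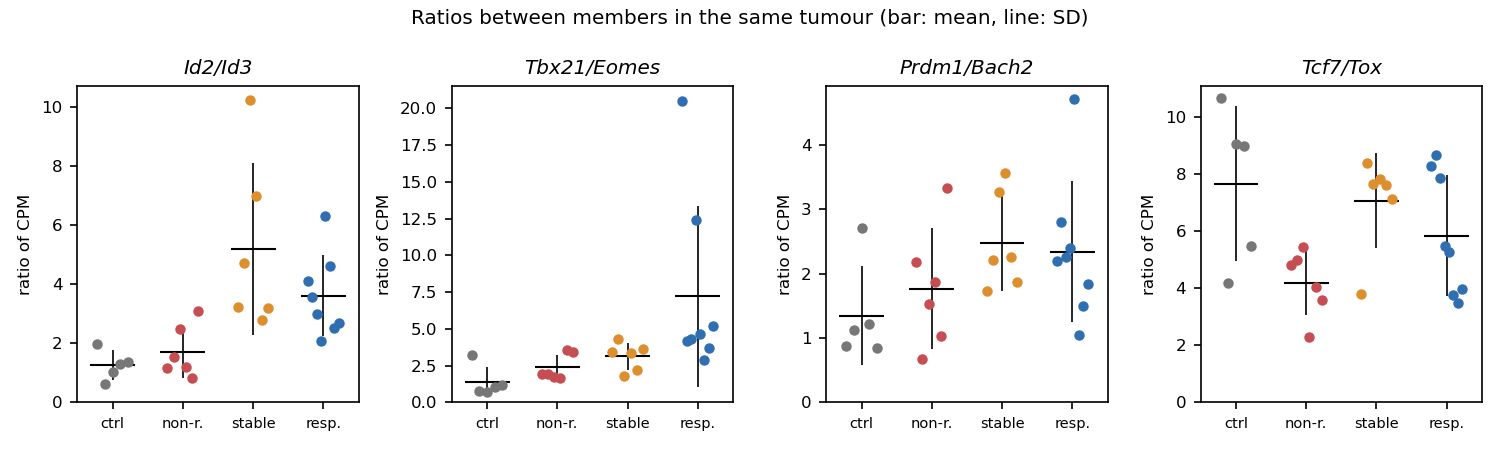
Ratio of the CPM of 2 members in the same tumour (y axis) by group (x axis, named as in the plot of levels), with 1 point per tumour, a bar at the mean and a line of 1 SD. Id2 per Id3 is at most 1.98 in controls and at least 2.07 in responders, and non-responders, at up to 3.09, overlap the responders.

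Other fate-determining transcription factors moved in both directions. Of 44 tested, 15 rose and 2 fell in responders against non-responders, with a median log2 fold change of 0.37 beside 0.05 over all genes, of which 25.2% were called higher and 23.8% lower. Gata3, the factor of type 2 helper cells, had the largest rise at 1.78 (SE 0.605, adjusted p = 0.0185). It went from 4.07 ± 2.39 CPM in non-responders to 14.1 ± 9.43 CPM in responders. Controls had 3.25 ± 3.87 CPM of Gata3, up to 10.0, and which cells carried it was not tested. Lef1, the closest relative of Tcf7, rose by 1.52 (SE 0.383, adjusted p = 0.00291), from 6.90 ± 4.22 to 19.8 ± 8.92 CPM. Runx3 (1.72), Runx1 (1.43), Satb1 (1.35), Bcl6 (0.98) and Foxp3, the factor of regulatory T cells (0.88), were among the others that rose. Tcf12, which encodes an E protein of the kind that ID2 and ID3 bind, fell (log2 fold change -0.67, SE 0.142, adjusted p = 0.000857). It had 330 ± 38.1 CPM in controls, whose Cd3e was 1.37 ± 0.694 CPM, 210 ± 63.6 in non-responders and 132.5 ± 17.1 in responders. In stable tumours against non-responders 8 rose and 2 fell, beside 7.08% and 7.86% of all genes, with Stat4 at 1.24 (SE 0.396, adjusted p = 0.0371) and Nfatc2 at -0.90 (SE 0.303, adjusted p = 0.0467). Nfatc2 had 199 ± 28.2 CPM in controls, 143 ± 82.7 in non-responders and 77.0 ± 24.6 in stable tumours. Which cells carried Tcf12 and Nfatc2 was not tested. Tox2, the relative of Tox, did not pass the filter, with 9, 14, 13 and 33 counts in all over controls, non-responders, stable tumours and responders. Against controls 27 rose and 4 fell in responders, 21 and 2 in stable tumours, and 15 and 1 in non-responders, where 36.1%, 22.2% and 10.6% of all genes were called higher and 28.9%, 19.6% and 3.29% lower.

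Of 11 inhibitory receptor genes tested, all 11 rose against controls in each outcome group, where at most 36.1% of all genes did. Other T cell lists rose too. In responders, stable tumours and non-responders, 13, 14 and 13 of 14 effector genes were higher than in controls. So were 12, 13 and 11 of 14 naive, memory and progenitor genes. In each outcome group all 15 T cell markers and 6 of 9 activation receptor and cytokine genes were higher. In responders 1 of these 9 genes was called lower than in controls. Against non-responders, 25.2% of all genes were called higher in responders and 7.08% in stable tumours, the shares beside which the counts of these lists stand. Of the inhibitory receptor genes, 6 rose in responders against non-responders and 5 in stable tumours against non-responders. The median log2 fold changes of the last 2 comparisons were 0.84 and 0.83, beside 0.05 and -0.02 over all genes. Tigit rose in responders by 1.53 (SE 0.412, adjusted p = 0.00447) and Havcr2, which encodes TIM-3, in stable tumours by 1.38 (SE 0.378, adjusted p = 0.0171). Of 14 naive, memory and progenitor genes, 2 rose in responders and 4 in stable tumours against non-responders, led by Il7r, the interleukin 7 receptor, at 1.90 (SE 0.414, adjusted p = 0.000992) and 1.99 (SE 0.432, adjusted p = 0.00518). None of 14 effector genes passed the test in responders against non-responders (median 0.40), and 1 did in stable tumours, the chemokine gene Ccl5, at 1.95 (SE 0.493, adjusted p = 0.0114). Of 9 activation receptor and cytokine genes, 4 rose in responders and 3 in stable tumours, with Tnfrsf9, which encodes 4-1BB, at 1.70 (SE 0.509, adjusted p = 0.00913) and 1.54 (SE 0.527, adjusted p = 0.0499).

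The genes whose levels went most closely with each member within groups were found by correlating log2 CPM after taking off the group means, over the 25 tumours and 15340 genes. These values describe tumours that share depth and cell content. Tox went most closely with Gm4759 (r = 0.935), BE692007 (0.905) and Cd3e (0.901), so that Cd3e ranked 3 among all genes for Tox. For Tbx21 the closest were Tbc1d10c (0.936), Themis (0.930) and Apol7e (0.929), for Batf Icos (0.919), Sash3 (0.903) and Lfng (0.899), and among those for Eomes were Ikzf1 (0.870) and Gpr174 (0.848). Icos encodes a costimulatory receptor of T cells and Themis a T cell signalling protein. Id2 went with Cyp4v3 (0.900), Serpinb6b (0.891) and Gng2 (0.878), Prdm1 with Jag1 (0.875), Spint1 (0.874) and Btg3 (0.868), and Id3 with Akap6 (0.841), Timp3 (0.821) and Lpar3 (0.821). Tcf7 went with Gm2808 (0.829), Sdc3 (0.823) and Slc29a3 (0.822), Bach2 with B230362B09Rik (0.911), Cacna1c (0.910) and Fcho2 (0.889), and Nr4a1 with Dpysl5 (0.825), Zfp607b (0.771) and Pura (0.759). The correlation with Cd3e was 0.269 for Nr4a1, 0.289 for Id2, 0.512 for Bach2 and 0.532 for Prdm1, the 4 lowest of the 10, and 0.673 to 0.901 for the other 6.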

How the data were processed

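Bulk RNA sequencing libraries of 25 tumours were analysed, all made with a stranded total RNA kit per the labels' protocols, although polyA RNA is the molecule named there. The submitters' processing notes name bcl2fastq 2.17, Trimmomatic, STAR 2.5.1, RSEM 1.2.22 and the build mm10, without their roles. The authors deposited expected counts per gene, not normalized, and 5.64% of these values were not whole, so they were rounded; the planned tests had assumed whole counts. The authors also deposited RPKM values, used for levels per length and as an alternative. All 55450 gene identifiers matched GENCODE M21 (GRCm38). No 2 replicates agreed within sampling noise (lowest chi-square per gene 16.9), and none was counted as a duplicate.

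Levels were tested with edgeR 4.0.16 in R 4.3.3 on 18031 genes kept by filterByExpr, with TMM scaling, 4 group means and robust quasi-likelihood F tests for 6 contrasts. Ratios were tested with robust limma 3.58.1 on log2 CPM (prior count 2) minus that of Cd3e. Each test was two-sided, with p-values adjusted by Benjamini-Hochberg over all genes and called under 0.05, and standard errors of levels came from the fold change and F. Both fits were tested on simulated data. Alternatives were DESeq2 1.42.0, RLE factors, no filter or a stricter one (1 CPM in 8 tumours, mean count 50), only the groups compared, protein-coding genes, the protein-coding share as a covariate, log2(RPKM + 1), prior counts, other denominators, a Cd3e offset and each tumour left out. On log2(RPKM + 1) the added 1 damps changes most in genes near or under 1 RPKM, such as Tox and Eomes. The members and lists were chosen with earlier results of these data known. Every member was named, and of each list the called genes with the highest and lowest change at a mean of at least 1 CPM against non-responders, the closest relatives, and the 3 genes most like each member, except 1 that is not reported here. Runx1, Runx3, Satb1, Bcl6, Foxp3 and the CD3 genes other than Cd3e were named outside that rule, after their values were seen.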

Additional observations from a re-analysis of the deposited data

Results flagged for a closer look

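In 9 of 84 groups of values, 1 tumour stood apart from the others of its group by Dixon's criterion, which chance meets in about 1 of 20 groups. Control 5 had 1.55 CPM of Tbx21 against 0.391 to 0.533 in the other controls. Id2 stood apart in non-responder 6, at 79.4 CPM against 22.6 to 43.8, and in responder 5, at 92.7 CPM against 33.8 to 60.4. Relative to Cd3e, Id2 stood apart in control 1 (48.3 against 6.04 to 18.1), in non-responder 3 (17.0 against 2.95 to 7.87) and in responder 5 (6.33 against 1.75 to 3.33). Non-responder 3, which had the lowest Cd3e of its group, also stood apart for Prdm1 per Cd3e (3.45 against 1.27 to 1.86) and Nr4a1 per Cd3e (60.9 against 7.10 to 22.6). Responder 5 stood apart for Batf per Cd3e, at 0.546 against 0.185 to 0.346.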

How the results depend on the processing

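Of 4128 values of single genes recomputed under other settings or with 1 tumour left out, 3979 kept their direction and their side of the threshold. An uncalled value was given no direction, so a reversal was counted only where the value or its alternative was called. There were 3: with responder 5 as the sole responder, a setting chosen after seeing the data that assumes it varies like the other groups, Bach2 was -0.25 for responders minus controls and the Id2 ratio 0.091 for responders minus non-responders. On log2(RPKM + 1) the Tbx21 ratio was -0.71 for responders minus controls, beside 0.13 in the main fit. The added 1 exceeds the mean RPKM of both Tbx21 and Cd3e in controls. The number of members called by level for responders minus non-responders moved from 4 to 1 with the protein-coding share in the model (Tcf7). With responder 5 alone that group has 1 tumour, so lost calls cannot be told from lost replication. The log2 fold changes against non-responders were then 0.45 for Tcf7, 1.33 for Tbx21, -0.81 for Id3 and 0.65 for Prdm1. In the main fit they were 0.54, 0.97, -0.89 and 1.11. Responders minus stable tumours moved from 0 to 1 by DESeq2 and to 1 in a fit of only those groups, stable tumours minus non-responders from 2 to 4 by DESeq2, and non-responders minus controls from 6 to 3 in a fit of only those groups. For the ratio, responders minus non-responders moved from 7 to 1 with the mean of 4 CD3 genes, 3 with Cd2 and 4 with the covariate. The ratio counts of responders minus stable tumours moved from 0 to 4 in a fit of only those groups. Those of stable tumours minus non-responders moved from 2 to 4 with Cd2, 4 on log2(RPKM + 1), 4 with a Cd3e offset and 1 in a fit of only those groups. The cause of these moves was not tested.

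With each tumour left out in turn, the level counts ranged from 3 to 5 for responders minus non-responders, 0 to 2 for responders minus stable tumours (1 without non-responder 6, 2 without responder 5), 1 to 4 for stable tumours minus non-responders (1 without non-responder 1, 2 or 3, 4 without non-responder 6), 8 for responders minus controls, 7 to 8 for stable tumours minus controls and 3 to 9 for non-responders minus controls (3 without non-responder 6, 9 without non-responder 3). The ratio counts ranged in the same order from 6 to 8, 0 to 2 (2 without non-responder 3, 1 without responder 5), 1 to 4 (1 without non-responder 2 or 3 or stable 1, 2, 3, 5 or 6, 4 without non-responder 6), 9, 7 to 8 and 5 to 8. No paired analysis was possible because the labels give each tumour its own id and the replicate numbers only follow the order of the records. Counts under 10 for Eomes and Tox in some responders, and for Eomes in control 1, limit the precision of both. Eomes had 5 to 25 counts in the controls, the baseline of its rises.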
